A study of Mus musculus with 14 samples.

Results

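In the methylation table of mammary adipose tissue, 109 of 75761 CpG sites carried the symbol of an Irx gene and 0 carried that of Fto. The members were every site that the table assigned, by its nearest transcript, to Fto or to Irx1, Irx2, Irx3, Irx4, Irx5 or Irx6, so 6 of the 7 genes were measured. Irx5 had 36 sites, Irx2 and Irx4 had 25 each, Irx1 had 20, Irx3 had 2 and Irx6 had 1. Of the 109 sites, 81 varied enough across mice to be tested, with a standard deviation of the level of at least 0.05. Each value is a methylation level, the share of the reads at a site that carried a methylated C.

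Fto encodes an RNA demethylase that removes methyl groups from m6A, and its introns hold the common variants most strongly tied to body mass in people. Those introns contain enhancers that contact the promoters of the neighbouring homeobox genes Irx3 and Irx5, which have been linked to thermogenesis in adipocytes. The Irx genes encode Iroquois transcription factors of the TALE homeobox class, which pattern the embryo and lie in a pair of clusters, Irx3, Irx5 and Irx6 beside Fto on chromosome 8 and Irx1, Irx2 and Irx4 on chromosome 13. Methylation of CpGs at a promoter generally goes with silencing of the gene, whereas CpG islands of developmental regulators are usually kept nearly free of it.

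Reduced representation bisulfite sequencing (RRBS), which reads CpG-rich DNA after a cut with MspI at CCGG, had been run on the tumor-free fat pad of the opposite side in 14 wild-type female C57BL/6NCrl mice, aged 8 weeks on arrival. CON-LFD mice (n = 3) ate a low-fat diet with 10% of kcal as fat throughout, while DIO-HFD mice (n = 4) were made obese with a 60% high-fat diet and stayed on it. DIO-LFD mice (n = 3) were made obese in the same way and after 15 weeks lost weight on the low-fat diet, and DIO-VSG mice (n = 4) received vertical sleeve gastrectomy, removal of most of the stomach, together with that diet. Mice without the gastrectomy had a sham operation, and mice of all groups, lean controls included, were injected with E0771 mouse mammary cancer cells in the 4th mammary fat pad at week 22 and studied 4 weeks later. The labels also name E0771 as cell line, but the tissue is given as contralateral normal mammary tissue, and its cell types could not be checked from methylation alone. No read counts were used here and sequencing depth is unknown; a shift in the mix of cells cannot be told apart from a change within cells. Across all 65610 tested sites the mean level of DIO-HFD replicate 1 was 66.2%, against 57.2% to 57.6% in the other 3 DIO-HFD mice and 60.6% to 65.2% in the other groups. This mouse stands apart from its group, and differences from DIO-HFD that rest on it are given below also without it.

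The stretches that carry the main patterns are shown on the + strand of GRCm38.p6 (mm10), with the measured CpG, or the whole CCGG where the measured C lies in one, in capitals. The first 2 lie upstream of Irx5 (chr8:92357308-92357428) and Irx6 (chr8:92674040-92674140). The next is a stretch of an Irx5 intron (chr8:92365006-92365166) and the one after it lies past the end of Irx1 (chr13:71957490-71957660), which sits on the − strand. The last 2 show neighbouring CpGs with unlike levels in an intron of Irx4 (chr13:73264128-73264211) and a distant site listed under Irx4 (chr13:73069179-73069299).
Irx5 upstream: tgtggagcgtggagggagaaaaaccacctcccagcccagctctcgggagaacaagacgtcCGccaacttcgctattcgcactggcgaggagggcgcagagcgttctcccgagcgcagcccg
Irx6 upstream: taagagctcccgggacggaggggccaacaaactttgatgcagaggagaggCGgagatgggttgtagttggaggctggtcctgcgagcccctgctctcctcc
Irx5 intron: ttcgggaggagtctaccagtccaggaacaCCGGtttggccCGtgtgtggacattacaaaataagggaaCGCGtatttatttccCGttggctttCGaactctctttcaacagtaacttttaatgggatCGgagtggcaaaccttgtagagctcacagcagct
Irx1 past the end: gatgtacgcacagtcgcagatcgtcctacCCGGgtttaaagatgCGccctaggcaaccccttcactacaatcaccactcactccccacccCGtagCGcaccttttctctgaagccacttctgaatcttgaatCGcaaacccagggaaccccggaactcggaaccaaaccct
Irx4 intron: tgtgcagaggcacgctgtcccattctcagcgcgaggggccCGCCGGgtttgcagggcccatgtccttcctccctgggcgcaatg
Irx4 distant: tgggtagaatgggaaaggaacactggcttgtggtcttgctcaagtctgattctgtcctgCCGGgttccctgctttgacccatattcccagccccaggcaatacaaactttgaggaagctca

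The Irx sites fell into different ranges of level by their sequence context. The 42 sites inside CCGG had a median level of 54.8%, and 35 of them lay between 30% and 70%. The 67 sites outside CCGG had a median of 14.98%, and 50 of them were under 30%. Over all sites of the table the order was reversed, with medians of 62.4% in CCGG and 68.7% outside it. Of all CCGG sites 54.0% lay between 30% and 70%, and of all other sites 19.8% were under 30%. Within CpG islands the split was nearly complete, since 21 of 21 Irx sites in CCGG lay between 30% and 70% while 15 of 16 outside it were under 30%. Over all 18012 island sites of the table the medians were 50.6% in CCGG and 29.95% outside it, a smaller gap than the 53.1% and 11.6% of the Irx islands.

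The gap held between CpGs a few bases apart. In the Irx4 intron stretch above, the CpG at position 73264168 averaged 8.84% ± 6.14 (SD, n = 14 mice) and ranged from 2.47% to 24.0%. The CpG 3 bases further on, in the CCGG, averaged 56.1% ± 5.28 and ranged from 46.5% to 66.04%. The CCGG site was the higher of the pair in 14 of 14 mice. The same held in the other 3 Irx pairs within 10 bases of each other, where the means were 61.8% and 19.2% upstream of Irx4, 56.7% and 17.5% in its intron, and 38.4% and 12.2% in the Irx5 intron. What part the enzyme site has in the level of these sites was not tested. Levels of runs of sites are therefore given below for CpGs outside CCGG, while means over all tested sites of a gene or of the family hold both kinds.

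**Figure D1:**
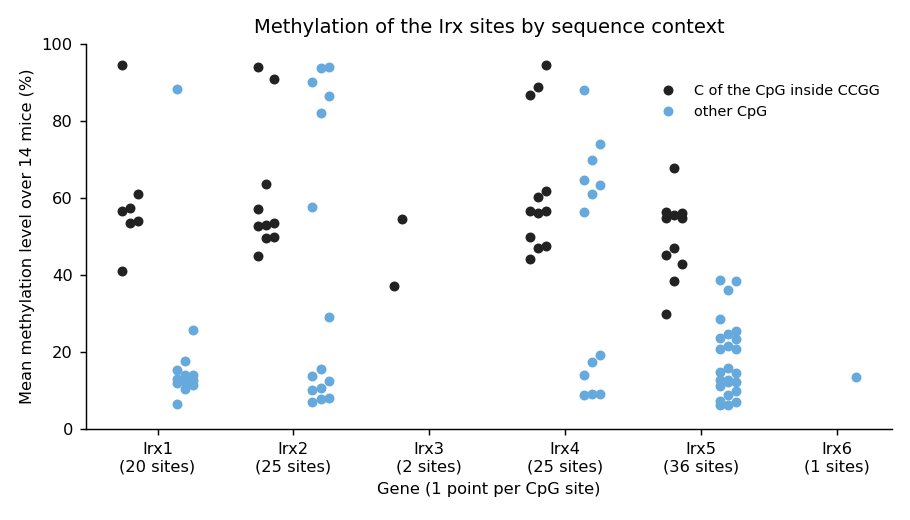
Mean methylation level over 14 mice (%) of each of the 109 Irx sites, by gene, with sites inside CCGG in black and other CpGs in blue. Of the 42 black points 35 lie between 30% and 70%, whereas 50 of the 67 blue points lie under 30%.

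Mean levels of 70% or more were found only at distant sites and in a run upstream of Irx4. Among the sites outside any annotated promoter, exon, intron, island or 2-kb upstream region, which made up 29.4% of the Irx sites and 25.5% of all sites, were those between 48573 and 54868 bases past the start of Irx2, at mean levels of 82.0% to 94.1%. The 3 sites about 329000 bases upstream of Irx1 were an exception among distant sites, with levels of 6.58% to 11.6%. The distant site 136137 bases upstream of Irx4 was also under 70%, at 56.4%. A run of 7 sites from 2812 to 2526 bases upstream of Irx4 had levels of 56.7% to 86.9%. By contrast, the single Irx6 site, 198 bases upstream of the start, averaged 13.5%, and in Irx5, whose sites all lay within or close to the gene, no site averaged above 67.7%.

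No Irx site passed an adjusted p of 0.05 in any comparison by limma with Benjamini-Hochberg adjustment over 65610 sites. Against DIO-HFD, the lowest adjusted p of an Irx site was 0.611 in CON-LFD mice, 0.494 in DIO-LFD mice and 0.150 in DIO-VSG mice, and between the weight-loss groups it was 0.945. Over all sites 0%, 0.00305%, 0.00305% and 0.00305% passed in these 4 comparisons. At an unadjusted p under 0.05, 6 of 81 Irx sites passed in the comparison of CON-LFD with DIO-HFD, where 7.76% of all sites did. DIO-LFD differed from DIO-HFD at 2 Irx sites, where 10.1% of all sites did. DIO-VSG differed from DIO-HFD at 7 Irx sites, or 8.64%, where 25.0% of all sites did. DIO-VSG and DIO-LFD differed at 7 Irx sites, where 3.98% of all sites did. On the levels as deposited, the share of Irx sites was thus near the background for the lean controls and below it for both weight-loss groups against DIO-HFD. The first 3 comparisons share the DIO-HFD mice. The directions of these few sites were mixed, with 3 higher and 3 lower in CON-LFD, 2 higher and 0 lower in DIO-LFD, and 6 higher and 1 lower in DIO-VSG. Over all sites 6% were higher and 1.76% lower in CON-LFD, 7.92% and 2.16% in DIO-LFD, and 20.2% and 4.85% in DIO-VSG.

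This reading turned for DIO-VSG when each mouse was centred on its median. Then 10 of 81 Irx sites passed in CON-LFD and 21 in DIO-VSG, or 12.3% and 25.9%, above the 7.56% and 20% of all sites, while the 7 of DIO-LFD, or 8.64%, were near the 9.95% of all sites. Between the weight-loss groups 6 passed, against 4.65%. Most of the centred differences were lower than in DIO-HFD, with 3 higher and 7 lower in CON-LFD, 0 and 7 in DIO-LFD, and 4 and 17 in DIO-VSG. Centring subtracts a median over all sites that was on average higher in the low-fat groups. It thus moves every Irx difference downward, and part of this direction follows from the subtraction. Over all sites 4.15% were higher and 3.4% lower in CON-LFD, 5.53% and 4.43% in DIO-LFD, and 8.64% and 11.4% in DIO-VSG.

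Ranges of the groups seldom failed to overlap at the Irx sites. CON-LFD and DIO-HFD did not overlap at 4 of 81 sites, against 4.68% of all sites, and DIO-LFD and DIO-HFD at 4, against 4.80%. DIO-VSG and DIO-HFD did not overlap at 3 sites, against 7.58% of all sites. DIO-VSG and DIO-LFD did not overlap at 9 sites, against 7.74%.

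The mean over the 81 tested Irx sites hardly varied between mice. It ran from 39.5% to 42.9%, whereas the mean over all tested sites ran from 57.2% to 66.2%. CON-LFD mice averaged 40.2% ± 0.583 (SD, n = 3), DIO-HFD mice 41.5% ± 1.41 (n = 4), DIO-LFD mice 41.3% ± 1.49 (n = 3) and DIO-VSG mice 40.9% ± 0.332 (n = 4) at the Irx sites. The differences from DIO-HFD were -1.35, -0.194 and -0.565 percentage points, each smaller than the SD of the DIO-HFD mice. Those of CON-LFD and DIO-VSG were larger than the SD of their own group. Without DIO-HFD replicate 1 the differences were -1.45, -0.302 and -0.673. At the 67 Irx sites outside CCGG alone, the group means were 27.5%, 29.2%, 28.4% and 28.01% in the same order. Over all tested sites the differences from DIO-HFD were 3.33, 3.43 and 4.89 points, higher in the low-fat groups, and 5.52, 5.62 and 7.08 without that mouse. At a site of median change the low-fat groups differed from DIO-HFD by 0.29, 0.30 and 0.48 in M over all sites, where M is the log2 ratio of methylated to unmethylated share after 0.01 is added to each. At the Irx sites these medians were -0.16, -0.04 and -0.13.

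**Figure D2:**
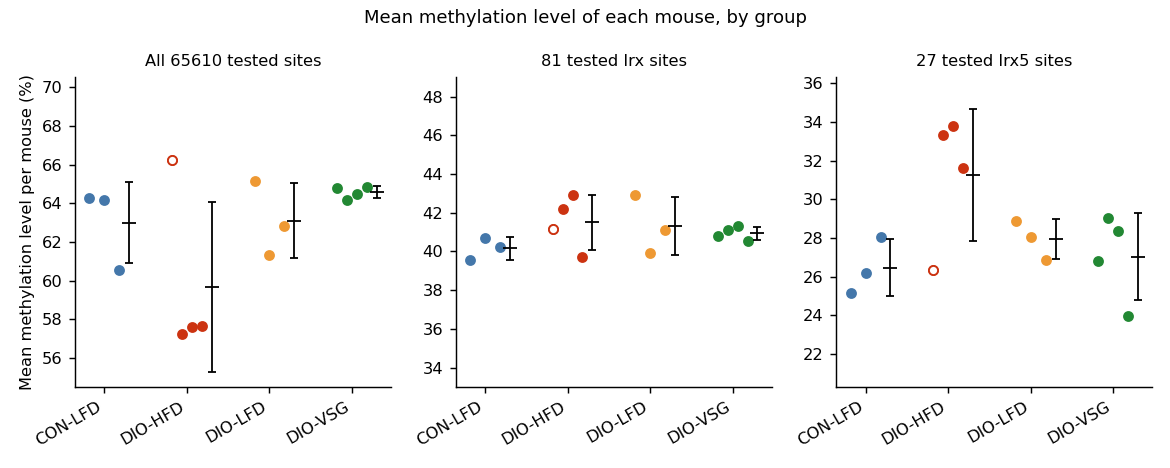
Mean methylation level of each mouse (%) over all tested sites, over the tested Irx sites and over the tested Irx5 sites, by group, with bars for the group mean ± SD and DIO-HFD replicate 1 as an open circle. The 3 axes span the same number of points: the Irx means stay between 39.5% and 42.9%, and at Irx5 3 DIO-HFD mice lie above the other 11.

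The nearly equal means hid opposite differences at lowly and highly methylated Irx sites. At the 12 Irx sites with mean levels of 70% or more, the median difference from DIO-HFD was 5.07 points in CON-LFD, 4.17 in DIO-LFD and 4.94 in DIO-VSG, near the 4.57, 4.42 and 6.35 of all sites in that class. At the 37 Irx sites under 30%, it was -3.49, -3.02 and -4.26 points, while the 9262 sites of that class had medians of 0.281, 0.930 and 1.34. CON-LFD was the lower group at 28 of these 37 sites, DIO-LFD at 24 and DIO-VSG at 25. In other words, 75.7%, 64.9% and 67.6% of the lowly methylated Irx sites were lower in the low-fat groups, compared with 48.5%, 45.1% and 45.2% of all lowly methylated sites. With DIO-HFD replicate 1 left out, the medians at the 37 sites were -6.70, -5.10 and -7.64 points, against 1.45, 2.04 and 2.38 over all sites of the class, and 26, 24 and 23 of the 37 were lower. At 70% or more they were then 9.13, 6.56 and 9.16 points, against 7.04, 6.91 and 8.75. Many of these 37 sites are neighbours in a few short runs and are not independent of each other, and no test was made of the list.

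**Figure D3:**
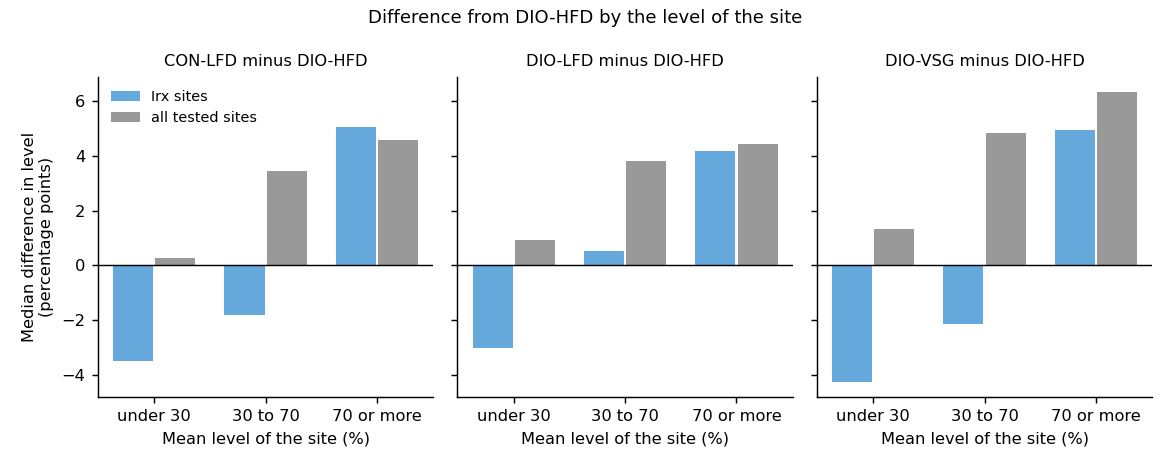
Median difference in methylation level from DIO-HFD (percentage points) for CON-LFD, DIO-LFD and DIO-VSG, for Irx sites (blue) and all tested sites (grey), by the mean level of the site. Below 30% the Irx medians are -3.49, -3.02 and -4.26 points while those of all sites are above 0; at 70% or more the Irx and overall medians lie on the same side of 0.

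In the chromosome 8 cluster, Fto spans 8:91313525-91668439 and had no site listed under its own name. The table did hold 7 sites in its introns, listed under Gm45292, Gm45291 and Gm3235, which are added here by position after their values were seen. They were highly methylated, with a mean of 92.6% ± 1.59 in CON-LFD, 87.2% ± 4.20 in DIO-HFD, 88.3% ± 5.33 in DIO-LFD and 93.02% ± 1.66 in DIO-VSG. The site at 91612614 varied most, at 93.7%, 87.1% and 83.1% in the 3 CON-LFD mice, 82.5%, 61.2%, 38.7% and 61.5% in the DIO-HFD mice, 70.4%, 83.8% and 66.7% in the DIO-LFD mice, and 83.3%, 89.5%, 89.04% and 88.6% in the DIO-VSG mice. Every DIO-VSG and CON-LFD mouse was above every DIO-HFD mouse at this Fto intron site. Its difference in M was 2.04 ± 0.54 (SE) for DIO-VSG against DIO-HFD, with an adjusted p of 0.150, and 2.16 ± 0.58 for CON-LFD, with an adjusted p of 0.611, both by limma. DIO-HFD replicate 1 was the highest of its group, and without it the adjusted p values by limma were 0.00296 and 0.0148. The other 6 Fto intron sites did not pass, while 34.4% of all sites passed for DIO-VSG and 12.0% for CON-LFD without that mouse. The mean of DIO-HFD over the 7 sites was then 85.5% ± 3.03.

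Irx3, which acts downstream of the Fto enhancers, had 2 sites of its own, both in the CpG island at its start and both in CCGG. The site 48 bases past the start, at 91801868, read 50%, 54.2% and 56.2% in CON-LFD, 58.2%, 55.8%, 53.9% and 57.1% in DIO-HFD, 46.5%, 41.7% and 54.5% in DIO-LFD, and 61.5%, 57.2%, 60.3% and 55.6% in DIO-VSG. The DIO-VSG mice were all above the DIO-LFD mice. The site 3 bases upstream, at 91802069, went the other way, with DIO-VSG mice at 29.3% to 35.6% and DIO-LFD mice at 40.1% to 46.9%. Its difference in M was -0.64 ± 0.29 for DIO-VSG against DIO-LFD, with an adjusted p of 0.945 by limma. The mean of both sites was 45.3% to 46.8% in the 4 groups.

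A further 25 sites lie inside the Irx3 gene but are listed under Irx3os, its antisense transcript. At the 18 of them outside CCGG, mean levels were 34.6%, 29.6% and 30.7% in CON-LFD, 30.01%, 41.6%, 52.7% and 42.8% in DIO-HFD, 32.2%, 39.4% and 33.0% in DIO-LFD, and 30.9%, 32.8%, 31.9% and 29.4% in DIO-VSG. DIO-HFD replicates 2, 3 and 4 were thus above every other mouse, while replicate 1 was among the lowest. Of the 23 tested sites in the Irx3 gene, 20 had a lower mean M in CON-LFD, 17 in DIO-LFD and 20 in DIO-VSG than in DIO-HFD. None passed the adjusted threshold in the limma fit of all mice. At an unadjusted p under 0.05, 6, 5 and 10 differed, where 7.76%, 10.1% and 25.0% of all sites did, and each was lower than in DIO-HFD except 1 in DIO-VSG. Without DIO-HFD replicate 1, 10, 6 and 12 passed an adjusted p of 0.05, each of them lower than in DIO-HFD, among 12.0%, 14.6% and 34.4% of all sites. These sites, too, were added by position after their values were seen.

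Irx5, the other homeobox gene reached by the Fto enhancers, had higher levels in 3 of the 4 DIO-HFD mice than in any other mouse. Over its 27 tested sites the CON-LFD mice averaged 25.1%, 26.2% and 28.1%, the DIO-HFD mice 26.3%, 33.3%, 33.8% and 31.6%, the DIO-LFD mice 28.9%, 28.1% and 26.9%, and the DIO-VSG mice 26.8%, 29.0%, 28.4% and 24.0%. DIO-HFD replicates 2 to 4 were above all other mice and replicate 1 lay within the range of the lean controls, the reverse of their order over all sites. The low-fat groups had the lower mean at 22, 23 and 23 of the 27 sites for CON-LFD, DIO-LFD and DIO-VSG.

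At Irx5 sites outside CCGG, the mean of DIO-HFD was the highest of the 4 groups in the intron runs. Around the start it was the lowest by a small margin, which rested on the site at 92357368. Of a run of 16 intron sites from 6484 to 7690 bases past the start, part of which is printed above, the 14 sites outside CCGG averaged 15.5%, 14.3% and 18.6% in CON-LFD, 15.8%, 25.8%, 26.3% and 21.4% in DIO-HFD, 19.6%, 17.8% and 16.9% in DIO-LFD, and 16.0%, 22.8%, 16.4% and 12.3% in DIO-VSG. DIO-HFD replicates 2 and 3 were the highest there, and 1 DIO-VSG mouse lay above replicate 4. In a further run from 9201 to 9638 bases past the start, the 6 sites outside CCGG averaged 17.6%, 28.2%, 28.1% and 25.8% in DIO-HFD and 13.6% to 25.3% in the other groups. In the run around the start, from 742 bases upstream to 3167 bases past it, the 5 sites outside CCGG averaged 11.7% to 14.7% in DIO-HFD and 11.5% to 19.1% elsewhere. The differences from DIO-HFD were -6.17, -4.24 and -5.44 points in the first intron run, -6.76, -3.65 and -7.41 in the next, and 1.62, 1.76 and 1.33 around the start for the 3 low-fat groups in the same order. The SD of the 4 DIO-HFD mice was 4.86 and 5.03 points in the intron runs, larger than the DIO-LFD difference in each. Without DIO-HFD replicate 1 the differences were -8.33, -6.41 and -7.60 points in the first intron run, -9.21, -6.11 and -9.87 in the next, and 2.02, 2.17 and 1.74 around the start. The 5 sites around the start include 92357368, with means of 1.61% in DIO-HFD and 8.71%, 7.26% and 11.5% in the low-fat groups. Over the rest of the 5 sites the mean of DIO-HFD was above that of DIO-VSG and thus not the lowest. At the 7 CCGG sites of that run DIO-HFD averaged 53.5% and the low-fat groups 51.6%, 52.0% and 53.7%, so DIO-HFD was not the lowest.

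**Figure D4:**
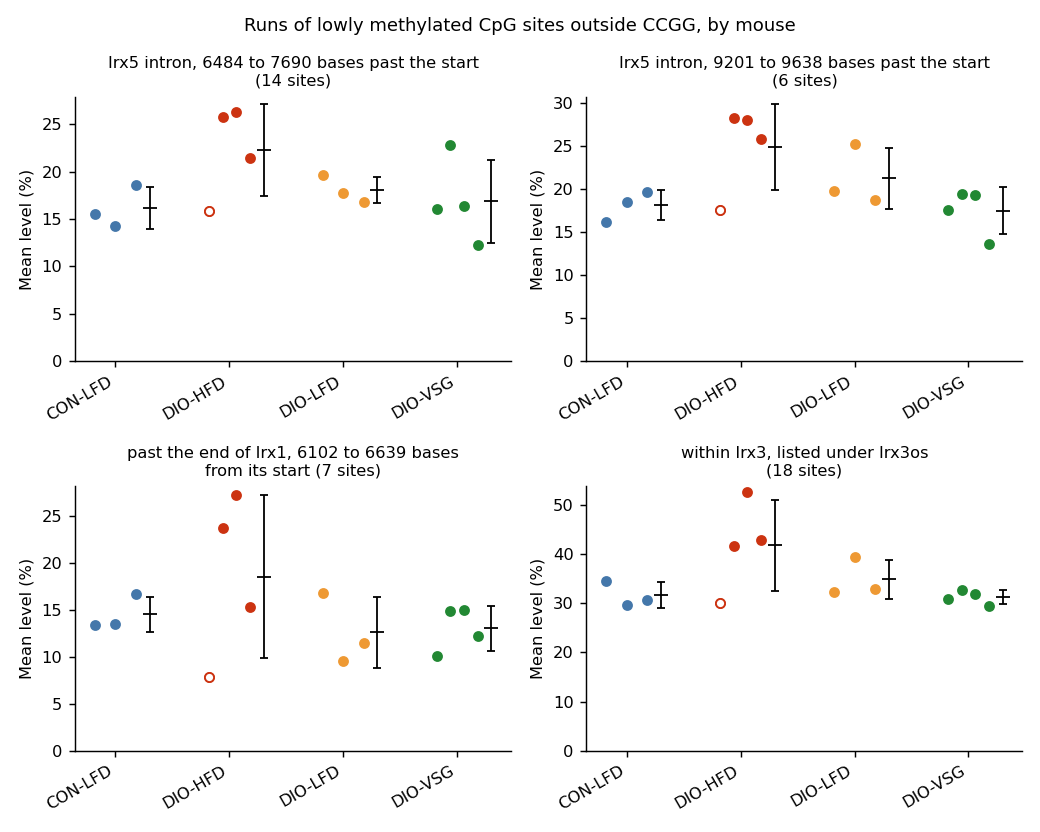
Mean methylation level of each mouse (%) over 4 runs of CpG sites outside CCGG, by group, with bars for the group mean ± SD and DIO-HFD replicate 1 as an open circle. In the Irx5 intron run from 6484 to 7690 bases past the start 3 DIO-HFD mice lie at 21.4% to 26.3% and the open circle at 15.8%, and within Irx3 they lie at 41.6% to 52.7% and the open circle at 30.01%.

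At single Irx5 sites, the CpG 257 bases upstream of the start, at 92357368 in the promoter island, gave the smallest p against DIO-HFD. It read 7.69%, 9.76% and 8.70% in CON-LFD, 6.45%, 0%, 0% and 0% in DIO-HFD, 11.4%, 0% and 10.3% in DIO-LFD, and 18.9%, 5.26%, 12.7% and 9.30% in DIO-VSG. No methylated read was listed in 3 of 4 DIO-HFD mice and in 1 DIO-LFD mouse, and with the depth unknown no upper limit can be given for these zeros. DIO-VSG was higher than DIO-HFD by 2.95 ± 0.86 in M, with an adjusted p of 0.150 by limma, and CON-LFD by 2.66 ± 0.92, with an adjusted p of 0.611. With mice at 0% the size in M depends on the added 0.01. In levels the differences were 9.93 and 7.10 points. Without DIO-HFD replicate 1 the adjusted p values were 0.00514 and 0.0272. The direction at this promoter site was thus opposite to that in the intron runs of the same gene.

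A coding-exon site of Irx5 at 92360622, in CCGG, was lower in the lean controls. It read 37.6%, 42.5% and 39.3% in CON-LFD and 48.0%, 48.1%, 57.1% and 55.0% in DIO-HFD, with DIO-LFD at 42.9% to 48.9% and DIO-VSG at 44.3% to 52.2%. CON-LFD and DIO-HFD did not overlap, and the difference in M was -0.70 ± 0.27, with an adjusted p of 0.611 by limma and 0.0586 without DIO-HFD replicate 1. Another island site, 662 bases upstream at 92356963, separated the weight-loss groups, with DIO-VSG at 57.3% to 71.2% and DIO-LFD at 39.3% to 55.4%, at an adjusted p of 0.945.

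Irx6, the most distal gene of the cluster, had 1 site, 198 bases upstream at 92674090. It read 11.5%, 12.9% and 10.5% in CON-LFD, 13.95%, 3.99%, 12.2% and 8% in DIO-HFD, 15.5%, 10.4% and 17.8% in DIO-LFD, and 26.0%, 15.9%, 11.1% and 18.7% in DIO-VSG. The DIO-VSG mean of 17.9% ± 6.23 was above the 9.53% ± 4.46 of DIO-HFD, but the groups overlapped. The difference in M was 1.04 ± 0.41, with an adjusted p of 0.164 by limma and 0.0321 without DIO-HFD replicate 1.

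In the chromosome 13 cluster, the DIO-HFD mice were spread widely in a run of sites past the far end of Irx1. The run past the end of the gene, from 6102 to 6639 bases past its start, held 7 sites outside CCGG that averaged 13.4%, 13.5% and 16.7% in CON-LFD, 7.90%, 23.8%, 27.2% and 15.4% in DIO-HFD, 16.8%, 9.57% and 11.5% in DIO-LFD, and 10.1%, 14.96%, 15.03% and 12.2% in DIO-VSG. DIO-HFD replicate 1 was the lowest of the 14 mice and replicates 2 and 3 the highest, while replicate 4 lay below 1 CON-LFD and 1 DIO-LFD mouse. In contrast, the 2 CCGG sites of the same run averaged 57.5% ± 3.47 in DIO-HFD and 56.1% to 58.3% in the other groups. The tested Irx1 site nearest the start, at 71958756, lies in CCGG, 4968 bases past the start. It averaged 57.4% in CON-LFD, 59.2% in DIO-HFD, 57.4% in DIO-LFD and 53.3% in DIO-VSG. Its smallest p was for DIO-VSG against DIO-HFD, with a difference in M of -0.34 ± 0.28 and an adjusted p of 0.452 by limma.

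The distant Irx1 site at 72053853, 90131 bases upstream, was nearly fully methylated in the low-fat groups. It read 100%, 100% and 94.7% in CON-LFD, 97.7%, 89.5%, 80% and 78.3% in DIO-HFD, 97.7%, 93.6% and 100% in DIO-LFD, and 95.8%, 100%, 95.7% and 100% in DIO-VSG. Here DIO-HFD replicates 2 to 4 were the lowest 3 of the 14 mice, as they were over all sites. CON-LFD was higher than DIO-HFD by 2.84 ± 1.01 in M, with an adjusted p of 0.611 by limma and 0.0419 without DIO-HFD replicate 1. In levels the difference was 11.9 points, and with mice at 100% the size in M depends on the added 0.01.

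Irx2 lay close to the overall pattern of small differences. Its run from 680 bases upstream to 922 bases past the start, mostly in a CpG island, averaged 10.9% ± 2.26 in CON-LFD, 8.25% ± 5.80 in DIO-HFD, 12.4% ± 6.17 in DIO-LFD and 11.4% ± 2.68 in DIO-VSG at its 5 sites outside CCGG. The intron site 759 bases past the start, at 72629577, read 16.9%, 21.7% and 23.9% in CON-LFD, 20.8%, 3.31%, 8% and 7.22% in DIO-HFD, 22.6%, 5.41% and 17.8% in DIO-LFD, and 24.2%, 17.2%, 14.02% and 14.3% in DIO-VSG. Like the Irx5 promoter site, it was lowest in DIO-HFD replicates 2 to 4 and 1 DIO-LFD mouse. The CON-LFD difference in M was 1.43 ± 0.60, with an adjusted p of 0.611 by limma and 0.0398 without DIO-HFD replicate 1. Of the tested Irx2 sites, the nearest to the start, 170 bases past it at 72628988, read 0% in DIO-VSG replicate 2 and 38.1% to 61.5% in the other 13 mice.

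At Irx2 the weight-loss groups were apart at 72629346, an island site 528 bases past the start. DIO-VSG mice read 43.7%, 40.0%, 45.0% and 50%, and DIO-LFD mice 52.8%, 60.5% and 56.8%. The difference in M was -0.69 ± 0.28, with an adjusted p of 0.945 by limma and DIO-HFD, at 45.7% to 54.5%, overlapped both.

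Irx4 had the site with the smallest p of the family. At 73069239, 191240 bases upstream and inside CCGG, the level was 97.9%, 90.9% and 90.3% in CON-LFD, 95.7%, 90.6%, 78.8% and 96.7% in DIO-HFD, 100%, 91.8% and 92.0% in DIO-LFD, and 100% in each of the 4 DIO-VSG mice. DIO-VSG lay above every DIO-HFD mouse, by 3.24 ± 0.76 in M, with an adjusted p of 0.150 by limma and 0.00904 without DIO-HFD replicate 1. The size in M depends on the added 0.01 when a group is at 100%; in levels the difference was 9.55 points. A pair of sites 61 bases apart, 269185 and 269124 bases upstream, was also lowest in DIO-HFD, with means of 82.8% ± 4.82 at 72991294 and 81.3% ± 13.6 at 72991355. The other groups averaged 87.7% to 92.99% and 88.4% to 95.4% at this pair.

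The intergenic Irx4 site at 73124342 had the smallest p for diet weight loss. DIO-LFD mice read 63.5%, 68.9% and 60.0%, DIO-HFD mice 50.5%, 53.8%, 48.1% and 52.9%, CON-LFD mice 50.4% to 58.7% and DIO-VSG mice 51.0% to 61.4%. DIO-LFD lay above DIO-HFD in every mouse, by 0.75 ± 0.28 in M, with an adjusted p of 0.494 by limma and 0.0843 without DIO-HFD replicate 1. Near the gene, the site 307 bases upstream at 73260172 averaged 21.7% ± 3.84 in CON-LFD, 15.1% ± 4.53 in DIO-HFD, 22.2% ± 10.7 in DIO-LFD and 19.2% ± 4.11 in DIO-VSG, within the spread of the mice.

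**Figure D5:**
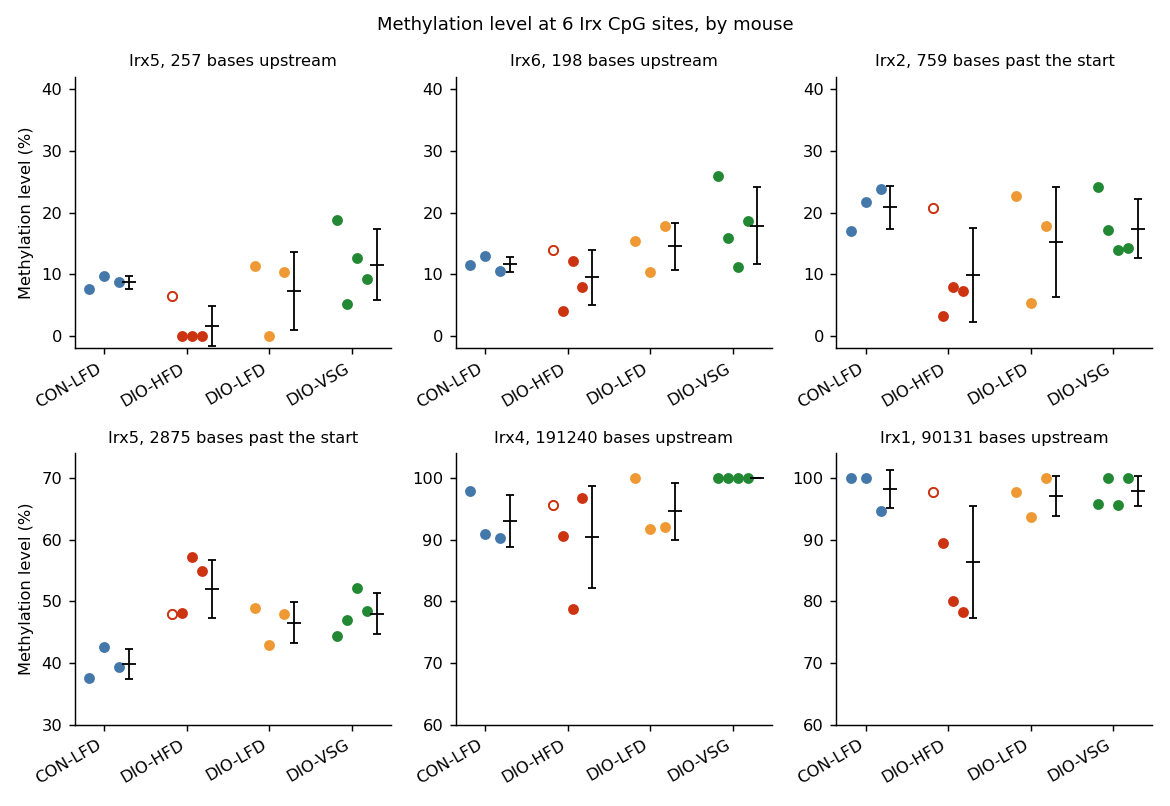
Methylation level of each mouse (%) at 6 Irx sites, by group, with bars for the group mean ± SD and DIO-HFD replicate 1 as an open circle; the axes do not all start at 0. At the Irx5 site 257 bases upstream 3 DIO-HFD mice read 0%, and at the Irx4 site 191240 bases upstream the 4 DIO-VSG mice read 100%.

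Without DIO-HFD replicate 1, 3 of 81 Irx sites passed an adjusted p of 0.05 by limma in CON-LFD, 0 in DIO-LFD and 10 in DIO-VSG, each against the other 3 DIO-HFD mice, and 0 passed between DIO-VSG and DIO-LFD. Over all sites 12.0%, 14.6%, 34.4% and 0.00457% then passed. At an unadjusted p under 0.05, 14 Irx sites differed in CON-LFD, 14 in DIO-LFD, 23 in DIO-VSG and 9 between the weight-loss groups, where 30.9%, 32.6%, 44.9% and 6.77% of all sites did. The 3 sites of the lean controls were those of Irx1 at 72053853, Irx2 at 72629577 and Irx5 at 92357368, each higher in CON-LFD. Of the 10 DIO-VSG sites, 7 were higher than in DIO-HFD, the 3 just named among them with the Irx6 promoter site and 3 sites upstream of Irx4. The 3 that were lower all lay in the Irx5 introns, 7432, 7474 and 9237 bases past the start. At the site 9237 bases past the start, DIO-HFD replicates 1 to 4 read 0%, 15.7%, 19.1% and 6.60%, and the DIO-VSG mice 1.61%, 6.19%, 5.03% and 2.52%.

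Irx1 and Irx5, on different chromosomes, varied alike across mice once the mean of each mouse over all tested sites was subtracted. The same values were subtracted from both genes, which can by itself raise r. On this scale the mean over the tested sites of each had a Pearson r of 0.92 over the 14 mice. Irx5 had r = 0.64 with Irx2 and 0.62 with Irx4, and Irx1 ranked 178 among the genes most like Irx5. Of 6092 genes with at least 3 tested sites, those most like Irx5 were B3gnt8 (r = 0.98) and Rims2 (0.97), those most like Irx1 were Gm25245 (0.97) and Hspb9 (0.96), those most like Irx2 were Cecr2 (0.90) and Ocel1 (0.88), and those most like Irx4 were Gm45460 (0.87) and Gm13425 (0.85). These values describe 14 mice with libraries of unknown depth, with DIO-HFD replicates 2 to 4 far from the rest, and many genes reach a like r.

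Genes related by place or function passed no adjusted threshold either. Among neighbours of the chromosome 8 cluster, 2 of 7 genes had 5 tested sites, and 0, 0 and 1 of them differed from DIO-HFD at an unadjusted p under 0.05 in CON-LFD, DIO-LFD and DIO-VSG. Of the neighbours on chromosome 13, 1 of 6 genes had 2 tested sites and none differed. RNA m6A genes, the enzymes and readers of the mark that FTO removes, had 32 tested sites in 9 of 16 genes, of which 1, 3 and 6 differed, all of them higher than in DIO-HFD. Thermogenic and beige adipocyte genes had 127 tested sites in 5 of 10 genes, of which 8, 14 and 23 differed, and 6, 10 and 19 of these were lower than in DIO-HFD. Other TALE homeobox genes had 73 tested sites in 10 of 12 genes, of which 4, 6 and 13 differed, 3, 2 and 11 of them higher. These counts read against 7.76%, 10.1% and 25.0% of all sites. Of the marker genes of cell types, adipocyte genes had 9 tested sites, with 0, 1 and 3 that differed, and mammary epithelial genes 15, with 0, 0 and 3. Lymphocyte and other immune genes had 26, with 0, 2 and 14 that differed in CON-LFD, DIO-LFD and DIO-VSG. Their part in the Irx values was not tested.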

How the data were processed

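RRBS of contralateral mammary adipose tissue from 14 mice was analysed. Reads had been aligned to mm10 with Bismark, sorted with samtools and called with methylKit, and 2 outlier mice, 1 CON-LFD and 1 DIO-LFD, had been removed by the authors. The authors deposited the level of each site in each mouse as a fraction, without further normalization and without read counts, so intervals and detection limits could not be given. The methods name a filter on sites with a standard deviation under 0.05, yet 10151 of the 75761 sites were under it and were left out of the tests here. Replicates are separate mice.

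Members and gene lists were chosen with earlier results of these data known. Levels were transformed to M = log2((level + 0.01)/(1 − level + 0.01)). The 4 groups were fitted in 1 model over 65610 sites with limma 3.58.1 in R 4.3.3, with Benjamini-Hochberg adjustment over all tested sites and a threshold of 0.05. On simulated data for DIO-VSG against DIO-HFD at 65610 sites, 68 of 200 sites changed by 2 in M were recovered with 5 false calls, and 160 of 200 changed by 4 with 6 false calls. The simulated noise was independent between sites and held no shift shared by the sites of a mouse, such as that of DIO-HFD replicate 1. These figures therefore do not give the recovery or the false calls in the real data. CCGG context and gene positions were read from GRCm38.p6 and GENCODE M21, and sites within 1000 bases of each other formed a run. Named sites were, for each gene, the tested site nearest its start and the site with the smallest p against DIO-HFD, and for each comparison the 3 Irx sites with the smallest p. Sites in the spans of Fto and Irx3, runs and single sites of runs were chosen after their values were seen. Symbols were missing at 361 sites. Python 3.11.15, pandas 2.3.3, NumPy 2.4.6 and Matplotlib 3.10.9 were used.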

Additional observations from a re-analysis of the deposited data

Results flagged for a closer look

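In 60 sets of 4 mice examined, covering DIO-HFD and DIO-VSG at the named sites, genes and runs, 2 had a mouse farther from the rest than Dixon's 95% limit for the gap to the nearest mouse over the whole range. Chance alone gives about 1 in 20. At the Irx2 site at 72629346, 528 bases past the start, DIO-HFD replicate 4 read 45.7% and the others 53.4% to 54.5%, a ratio of 0.873. At the Irx5 site at 92357368, DIO-HFD replicate 1 read 6.45% and the others 0%, a ratio of 1, which any group with a single value above 0 gives.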

How the results depend on the processing

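No Irx site passed the adjusted threshold under another offset, filter, scale, centring, moderation or set of groups. Leaving out each mouse in turn gave 0 to 3 such sites for CON-LFD and 0 to 10 for DIO-VSG against DIO-HFD, with every count above 0 coming from the fit without DIO-HFD replicate 1, and 0 in the other comparisons. Against DIO-HFD, the difference in the mean over the Irx sites then ran from -1.95 to -0.869 points in CON-LFD, from -0.987 to 0.496 in DIO-LFD and from -1.17 to -0.0883 in DIO-VSG, and between the weight-loss groups from -1.06 to 0.422. With each mouse centred on its mean level the 4 differences were -4.68, -3.62, -5.46 and -1.83 points, and with the median over sites -4.54, -2.60, -4.02 and -1.42. With the sites in the spans of Fto and Irx3, added after seeing the data, they were -2.76 for CON-LFD and -2.18 for DIO-VSG against DIO-HFD.

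Counts of Irx sites at an unadjusted p under 0.05, 6, 2, 7 and 7 in the 4 comparisons, became 10, 7, 21 and 6 with median centring, where 7.56%, 9.95%, 20% and 4.65% of all sites passed. Without DIO-HFD replicate 1 they were 14, 14, 23 and 9, against 30.9%, 32.6%, 44.9% and 6.77%, and with an offset of 0.1 they were 5, 3, 6 and 3, against 8.87%, 11.4%, 27.4% and 3.827%. In the fit of all mice they were 14, 7, 19 and 9 once 7 tested sites in the Fto span and 23 in the Irx3 span joined the 81. Among the tested Irx sites outside CCGG, which are fewer than 81, they were 3, 2, 4 and 1. Over all sites 7.76%, 10.1%, 25.0% and 3.98% passed in that fit. The count between DIO-VSG and DIO-LFD fell to 0 without DIO-LFD replicate 2. A minimum standard deviation of 0.1 left 1 Irx site. Of 400 alternatives for 19 named site differences, 0 turned the direction and 7, each without DIO-HFD replicate 1, passed the adjusted threshold. With the replicate number as a block, 0 sites passed and the unadjusted counts were 7, 2, 7 and 4. Of 19 same-numbered pairs of mice, 4 had an r over 0.1, in a range of -0.080 to 0.20. Other pairs had a median r of -0.016 and a range of -0.29 to 0.19. These values do not settle whether the numbers pair the mice. The cause of these shifts was not tested.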
